A study of Mus musculus with 4 samples.

Results

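Box C/D small nucleolar RNAs (snoRNAs) were examined in regulatory T cells (Treg) sorted from mice given an agonistic anti-DR3 antibody or a control antibody. The 47 members were chosen by name and by level: a probe set had to carry exactly 1 gene symbol in the platform annotation, that symbol had to be Snord followed by a digit, and the brightest probe set stood for its symbol. Each of the 47 symbols had 1 such probe set, so the measured level decided nothing. The rule does not use the difference between antibodies, but the group was chosen with earlier results of these data known. The members are 47 of 22180 genes with a probe set of a single symbol. There were 4 arrays, 2 of anti-DR3 Treg and 2 of control antibody Treg. All mice carried the strain label Foxp3Luci-DTR-4 on the B6 Albino background, and Treg (CD4, Foxp3 and GFP positive) were collected by flow sorting 4 days after an injection of antibody into the peritoneum. DR3, encoded by Tnfrsf25, is a costimulatory receptor of T cells in the tumour necrosis factor receptor family. The kind of control antibody is not stated in the labels. Age, sex, and whether the replicates came from separate mice are not given in the labels, so a p-value here reflects array-to-array spread alone, and that spread may be technical.

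Box C/D snoRNAs are short nuclear RNAs with conserved C and D boxes. They bind the proteins fibrillarin, Nop56, Nop58 and Snu13, and the particle methylates the ribose of the nucleotide that the snoRNA pairs with, mostly in ribosomal RNA. A few, such as the U3, U8 and U22 RNAs, act in cleavage of the ribosomal RNA precursor instead. In mammals most are cut out of introns of a host gene, so that each round of host transcription can yield both the host RNA and the snoRNA, and many hosts are ribosomal protein genes, ribosome assembly genes or noncoding Snhg genes. A probe set in a snoRNA cannot tell the mature snoRNA from the same letters in an unspliced host intron. In a bulk sample of cells, fewer cells of a type and less RNA per cell cannot be told apart.

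Levels are log2 of the deposited intensity, and each difference is the anti-DR3 mean minus the control antibody mean on that scale. The value after ± is limma's moderated standard error (SE, n = 2 arrays per group). It combines the gene's own spread between arrays with a spread estimated from all genes tested, and so do the p-values and intervals. A gene was tested when it lay above the median of all probe sets on at least 2 of the 4 arrays, which 44 of the 47 members and 12114 genes in all did. Tests were limma's moderated test with Benjamini-Hochberg adjustment over the 12114 genes, and a gene was called at an adjusted p under 0.05.

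After anti-DR3, 26 of the 44 members tested fell, 0 rose and 18 did not pass. That is 59.1% of the members called lower, against 1.47% of all genes tested called lower, 4.49% called higher and 5.96% called in either direction. Among the 44, the unadjusted p was under 0.05 for 36 members, each with a negative difference, and for 0 with a positive one. The difference was negative for each of the 44, from -1.0 to -0.04, with a median of -0.52 against 0.01 over all genes tested. The median corresponds to 69.9% of the control antibody level. For 40 of the 44 both anti-DR3 arrays lay below both control antibody arrays, which is 90.9%, against 24.6% of all genes tested, and for 0 both lay above, against 31.6%. Snord111 lay lowest relative to control antibody, at 50% of the control antibody level, and Snord73b, the called member with the smallest difference, at 75.6%.

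**Figure D1:**
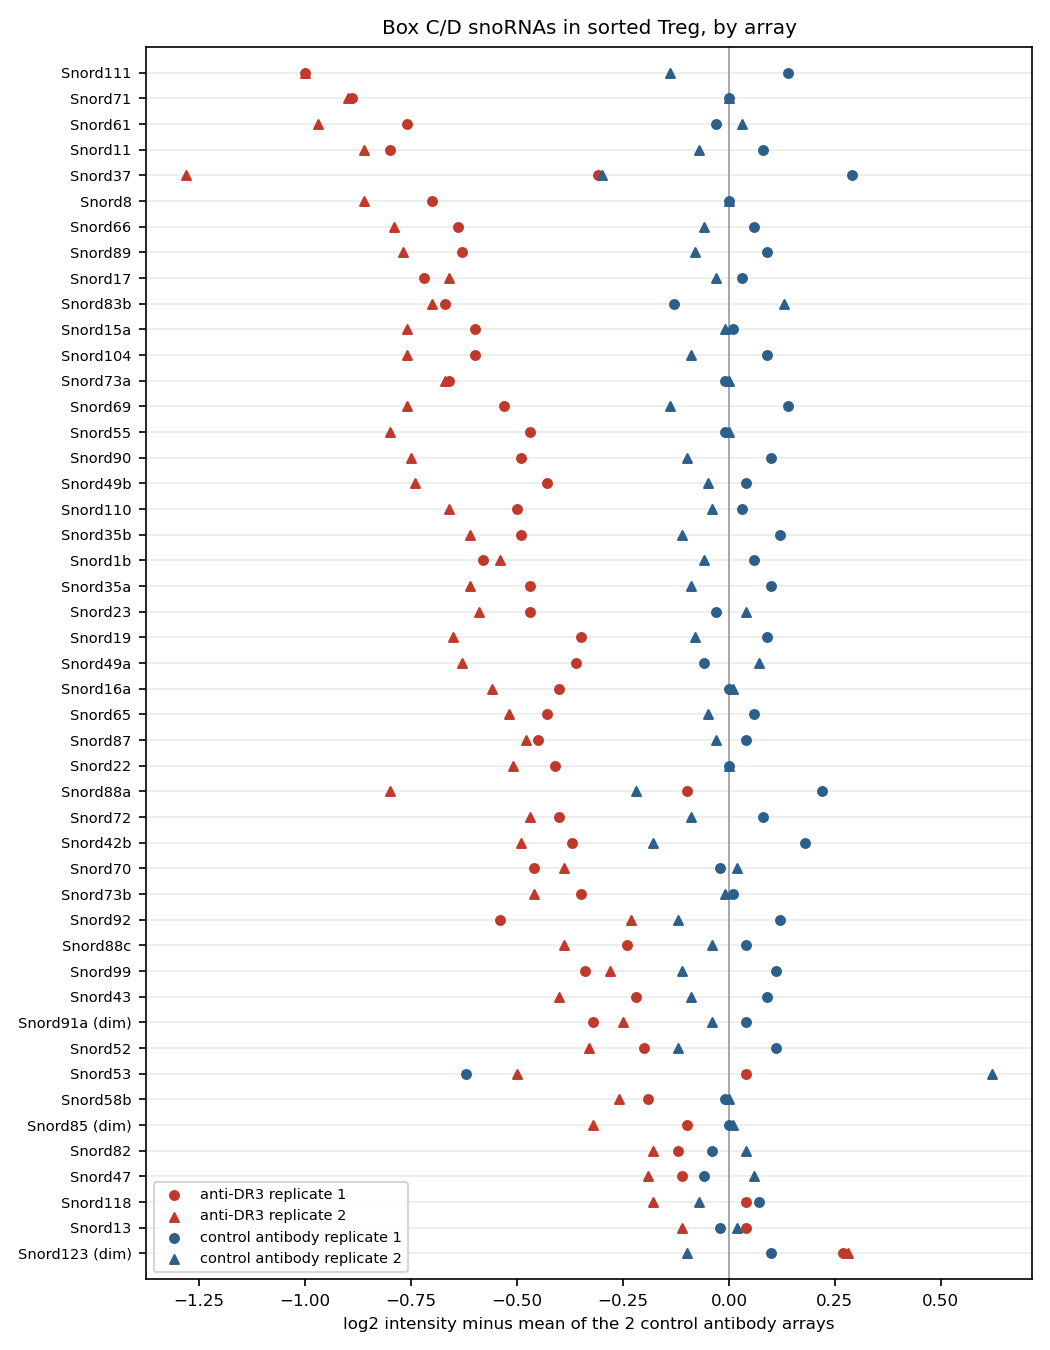
Log2 intensity of each of the 47 box C/D snoRNAs on each array, minus the mean of the 2 control antibody arrays (x axis). Red points are anti-DR3 arrays and blue points control antibody arrays, circles are replicate 1 and triangles replicate 2, rows run from the most negative to the most positive difference, and dim members were not tested. For 40 of 44 tested members both red points lie left of both blue points, and Snord53 shows the widest scatter within groups.

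The members moved together from array to array, within groups as well as between them. Anti-DR3 replicate 1 lay above replicate 2 for 38 of the 44 members, with a median gap of 0.14, while the median gap over all genes tested was 0.00. For control antibody, replicate 1 lay above replicate 2 for 30 members, with a median gap of 0.08 against 0.01 over all genes. Members measured on the same 4 arrays are not independent of one another. When single arrays were dropped, the median difference lay between -0.62 and -0.46, and at least 41 of the 44 differences stayed negative. Dropping anti-DR3 replicate 1 or anti-DR3 replicate 2 left 0 members called (35 and 31 at an unadjusted p under 0.05), and 33 and 0 of all 12114 genes. Dropping control antibody replicate 1 left 2 members and 96 of all genes called, and dropping control antibody replicate 2 left 9 members and 312 of all genes. All of these are below the 722 genes called with the 4 arrays. In these fits the lone array is assumed to vary like the other group.

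The members in protein-coding hosts other than ribosomal protein, ribosome assembly and translation factor genes held several of the most negative differences. Of the 8 tested in such hosts 6 fell, with a median of -0.73. Snord111, a guide for large-subunit ribosomal RNA in human that lies in the splicing factor gene Sf3b3, had 8.50 and 8.50 in anti-DR3 Treg, against 9.64 and 9.36 in control antibody Treg. It fell by 1.0 ± 0.11 (adjusted p = 0.0123, limma), and the groups did not overlap. Snord71, a guide for the short ribosomal RNA of the large subunit in human, lies in Ap1g1, which encodes an adaptor subunit of clathrin-coated vesicles. It had 8.93 and 8.92 in anti-DR3 Treg, against 9.82 and 9.82 in control antibody Treg, a fall of 0.89 ± 0.076 (adjusted p = 0.00988, limma). In both groups the replicates lay within 0.01 of one another at 2 decimals.

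Snord61, within Rbmx, the gene of an RNA-binding protein of splicing, had 11.23 and 11.02 in anti-DR3 Treg, against 11.96 and 12.02 in control antibody Treg. It fell to 54.9% of the control antibody level (-0.86 ± 0.10, adjusted p = 0.0134, limma). Snord8, within the chromatin remodeller gene Chd8, had 10.28 and 10.12 in anti-DR3 Treg, against 10.98 and 10.98 in control antibody Treg, and fell by 0.78 ± 0.090. In human it is a guide for the spliceosomal U6 RNA and not for ribosomal RNA. Snord17, within the sorting nexin gene Snx5, had 8.85 and 8.91 in anti-DR3 Treg, against 9.60 and 9.54 in control antibody Treg, and fell by 0.69 ± 0.080 (adjusted p = 0.0134 for both, limma). The groups of these 3 members did not overlap. Snord90, within Rc3h2, fell by 0.62 ± 0.12. Snord88a and Snord88c, which share the host 2410002F23Rik, had differences of -0.45 ± 0.25 and -0.31 ± 0.091 and did not pass.

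Of the 12 members that lie in ribosomal protein genes 8 fell, and the groups of all 12 did not overlap, with a median of -0.51. Snord83b had 8.39 and 8.36 in anti-DR3 Treg, against 8.93 and 9.19 in control antibody Treg, and fell by 0.69 ± 0.11 (adjusted p = 0.0269, limma). It shares the host Rpl3 with Snord43, whose difference was -0.31 ± 0.11. Snord15a, within Rps3, had 9.03 and 8.87 in anti-DR3 Treg, against 9.64 and 9.62 in control antibody Treg, and fell by 0.68 ± 0.090 (adjusted p = 0.0184, limma). Snord73a, within Rps3a1, had 8.71 and 8.70 in anti-DR3 Treg, against 9.36 and 9.37 in control antibody Treg, and fell by 0.66 ± 0.076 (adjusted p = 0.0134, limma). Both show gaps between the groups that are several times the gap between replicates. Snord35a (Rpl13a) fell to 68.4% of the control antibody level, Snord16a (Rpl4) to 71.6% and Snord73b (Rps3a1) to 75.6%. Snord72 (Rpl37), Snord42b (Rpl23a) and Snord58b (Rpl17) did not pass, with differences of -0.44, -0.43 and -0.22.

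Nop58, Nop56, Ncl, Gnl3, Wdr43 and Nop53 encode proteins of the nucleolus that act in ribosome assembly, and 5 of the 9 tested members within such genes fell. Snord11, a guide for small-subunit ribosomal RNA in human, lies in Nop58. It had 9.41 and 9.35 in anti-DR3 Treg, against 10.29 and 10.14 in control antibody Treg, and fell by 0.83 ± 0.090 (adjusted p = 0.0114, limma). Snord69, within Gnl3, the nucleostemin gene, fell by 0.65 ± 0.13 and Snord110, within Nop56, by 0.58 ± 0.092. Snord23 (Nop53) and Snord70 (Nop58) fell by 0.53 and 0.42. Snord19 (Gnl3) and Snord92 (Wdr43) did not pass, at -0.50 and -0.38. Snord82, within the nucleolin gene Ncl, had 12.05 and 11.99 in anti-DR3 Treg, against 12.13 and 12.21 in control antibody Treg, a difference of -0.15 ± 0.082 (adjusted p = 0.301, limma). Snord53 (Wdr43) was the member with the widest scatter, with 8.87 and 8.33 in anti-DR3 Treg, against 8.21 and 9.45 in control antibody Treg. Its lowest and its highest array were both control antibody arrays, and its difference of -0.23 ± 0.40 turned positive without either anti-DR3 replicate 2 (0.04) or control antibody replicate 2 (0.39).

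Of the 10 tested members in noncoding hosts 5 fell, and the groups of all 10 did not overlap, with a median of -0.47. Snord104, in the noncoding gene Gm36220, averaged 10.41 in anti-DR3 Treg, against 11.09 in control antibody Treg, and fell by 0.68 ± 0.10 (adjusted p = 0.0259, limma). Snord1b, in Snhg16, had 10.63 and 10.67 in anti-DR3 Treg, against 11.27 and 11.15 in control antibody Treg, and fell by 0.56 ± 0.085 (adjusted p = 0.0269, limma). Snord22, the U22 RNA needed for processing of small-subunit ribosomal RNA, lies in Snhg1 and fell by 0.46 ± 0.082 (adjusted p = 0.0368, limma). Its levels were 12.31 and 12.21 in anti-DR3 Treg, against 12.72 and 12.72 in control antibody Treg. Snord65 in 2410006H16Rik fell by 0.48 and Snord87 in Snhg6 by 0.47. Snord49b and Snord49a, also in 2410006H16Rik, had differences of -0.58 and -0.50 that did not pass, as did Snord99 in Snhg12 (-0.31) and Snord52 in 1110038B12Rik (-0.27). Snord47, in Gas5, had 11.74 and 11.66 in anti-DR3 Treg, against 11.79 and 11.91 in control antibody Treg, a difference of -0.15 ± 0.087 (adjusted p = 0.335, limma). Its groups did not overlap, but its interval ran from -0.37 to 0.06 at 95% confidence.

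Translation factor genes hosted 2 members. Snord66, within the initiation factor gene Eif4g1, had 8.59 and 8.44 in anti-DR3 Treg, against 9.29 and 9.17 in control antibody Treg, and fell by 0.72 ± 0.094 (adjusted p = 0.0179, limma). Snord37, within the elongation factor gene Eef2, had 5.98 and 5.01 in anti-DR3 Treg, against 6.58 and 5.99 in control antibody Treg. The replicates of Snord37 were about as far apart as the groups, which missed overlapping by 0.01, and its difference of -0.79 ± 0.34 did not pass (adjusted p = 0.208, limma).

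For 3 members no other gene of the RefSeq table spanned the snoRNA. Snord89 had 9.11 and 8.97 in anti-DR3 Treg, against 9.83 and 9.66 in control antibody Treg, and fell by 0.70 ± 0.10 (adjusted p = 0.0218, limma). The other two are Snord118, the U8 RNA of large-subunit ribosomal RNA processing, and Snord13, the U13 RNA, and both are known to be transcribed from promoters of their own in vertebrates. Snord118 had 7.48 and 7.26 in anti-DR3 Treg, against 7.51 and 7.37 in control antibody Treg, a difference of -0.07 ± 0.11 (adjusted p = 0.740, limma). Snord13 had 9.82 and 9.67 in anti-DR3 Treg, against 9.76 and 9.80 in control antibody Treg, a difference of -0.04 ± 0.089 (adjusted p = 0.837, limma). These were the smallest differences of the 44, and the groups overlapped for both. Their intervals at 95% confidence, -0.33 to 0.20 and -0.26 to 0.18, do not reach the median of the members, -0.52. The same holds for members within hosts: Snord82 (-0.35 to 0.05), Snord47 (-0.37 to 0.06) and Snord58b (-0.41 to -0.03). Snord118 and Snord13 both turned to 0.04 without anti-DR3 replicate 2. A difference between these RNAs and the intronic members was not tested.

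The remaining 3 members were too dim to be tested. Snord91a, in Tsr1, had 5.02 and 5.09 in anti-DR3 Treg, against 5.38 and 5.30 in control antibody Treg. Snord85 averaged 4.89 in anti-DR3 Treg, against 5.10 in control antibody Treg. In both cases the anti-DR3 arrays lay below the control antibody arrays. Snord123, in Snhg18, had 5.29 and 5.30 in anti-DR3 Treg, against 5.12 and 4.92 in control antibody Treg, and was the single member of the 47 that lay higher after anti-DR3.

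Members that share a host or a symbol stem could be compared within 7 hosts and 4 stems, 9 pairs of the most and the least negative member in all. Each pair's difference was fitted together with all genes tested, and 0 of the 9 passed. The widest gap was between Snord11 and Snord70, both in Nop58, where Snord11 was lower by a further 0.41 (-0.41 ± 0.10, adjusted p = 0.0768, limma). Snord83b and Snord43 in Rpl3 differed by -0.37 ± 0.15 (adjusted p = 0.196, limma), and Snord73a and Snord73b in Rps3a1 by -0.26 ± 0.082 (adjusted p = 0.119, limma). Snord35a and Snord35b, which share a symbol stem, had nearly the same difference, -0.55 and -0.56. The 3 snoRNAs of 2410006H16Rik spanned -0.58 to -0.48. A p that misses the threshold does not show that the members of a pair changed alike.

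Host RNAs lay nearer to no difference than the snoRNAs. Of the 36 hosts 27 had a probe set of a single symbol and 26 were tested, and the median difference of these was -0.05. Of the 26, 3 fell, 0 rose and 23 did not pass. The 3 were Nop56 and Nop58, core proteins of the box C/D particle, and Gnl3. Nop56 had 8.89 and 8.86 in anti-DR3 Treg, against 9.41 and 9.27 in control antibody Treg (-0.47 ± 0.087, adjusted p = 0.0389, limma). Nop58 had 8.81 and 8.67 in anti-DR3 Treg, against 9.22 and 9.17 in control antibody Treg (-0.45 ± 0.088, adjusted p = 0.0441, limma). Gnl3 had 8.23 and 8.33 in anti-DR3 Treg, against 8.77 and 8.65 in control antibody Treg (-0.43 ± 0.088, adjusted p = 0.0490, limma). For each of the 3 genes the groups did not overlap, while all 3 calls were lost when any 1 array was left out. The 7 ribosomal protein hosts tested had a median of 0.04, the 5 noncoding hosts -0.06 and the 6 ribosome assembly hosts -0.33.

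For 34 snoRNAs in 26 tested hosts the log2 ratio of snoRNA to host was formed on each array and fitted together with all genes tested. Of the 34 ratios 14 fell and 0 rose, against 5.98% of genes called in the same fit, and 31 were negative, with a median of -0.50. For 24 both anti-DR3 arrays lay below both control antibody arrays, and no such share was counted for ratios of other genes. Snord71 fell by 0.93 ± 0.077 relative to Ap1g1 (adjusted p = 0.00982, limma), whose own difference was 0.04. Snord111 fell by 0.95 ± 0.11 relative to Sf3b3 (adjusted p = 0.0130, limma), although a dimmer probe set of Sf3b3 gave -0.48 where the brighter one gave -0.05. Snord17 fell by 0.99 ± 0.12 relative to Snx5, Snord61 by 0.62 ± 0.088 relative to Rbmx and Snord73a by 0.52 ± 0.079 relative to Rps3a1. The Rps3a1 value is from its brightest probe set (-0.14), and another was too dim to be tested, with a difference of 0.01. For Rps3a1, Rpl3 and Rpl23a the identifier of the probe set used is far from that of the snoRNA, unlike for the other hosts. Whether those probe sets measure RNA from the gene that contains the snoRNA was not tested. Within 2410006H16Rik, which had 9.14 and 9.40 in anti-DR3 Treg, against 8.93 and 8.95 in control antibody Treg, the ratio fell for Snord49b and Snord65 by 0.91 and 0.81.

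The ratio did not pass for several members whose hosts also had negative differences. Snord70 and Nop58 differed by -0.42 and -0.45, Snord110 and Nop56 by -0.58 and -0.47, Snord22 and Snhg1 by -0.46 and -0.37, and Snord99 and Snhg12 by -0.31 and -0.34. Across the 34 pairs the snoRNA and host differences had a Spearman correlation of -0.024, given as a description, since pairs share arrays and some share a host. For Rpl3 the ratio depends on the probe set: the brightest gave 0.33 and the others -0.48 and -0.13. The ratios of Snord83b (-1.02) and Snord43 (-0.65), both called, were fitted with the brightest alone. Ratios to the other Rpl3 probe sets were not tested. Of the ratios, 1 was called when anti-DR3 replicate 1 was dropped and 0 when anti-DR3 replicate 2 was. With control antibody replicate 1 dropped 1 was called, and with control antibody replicate 2 dropped, 3.

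**Figure D2:**
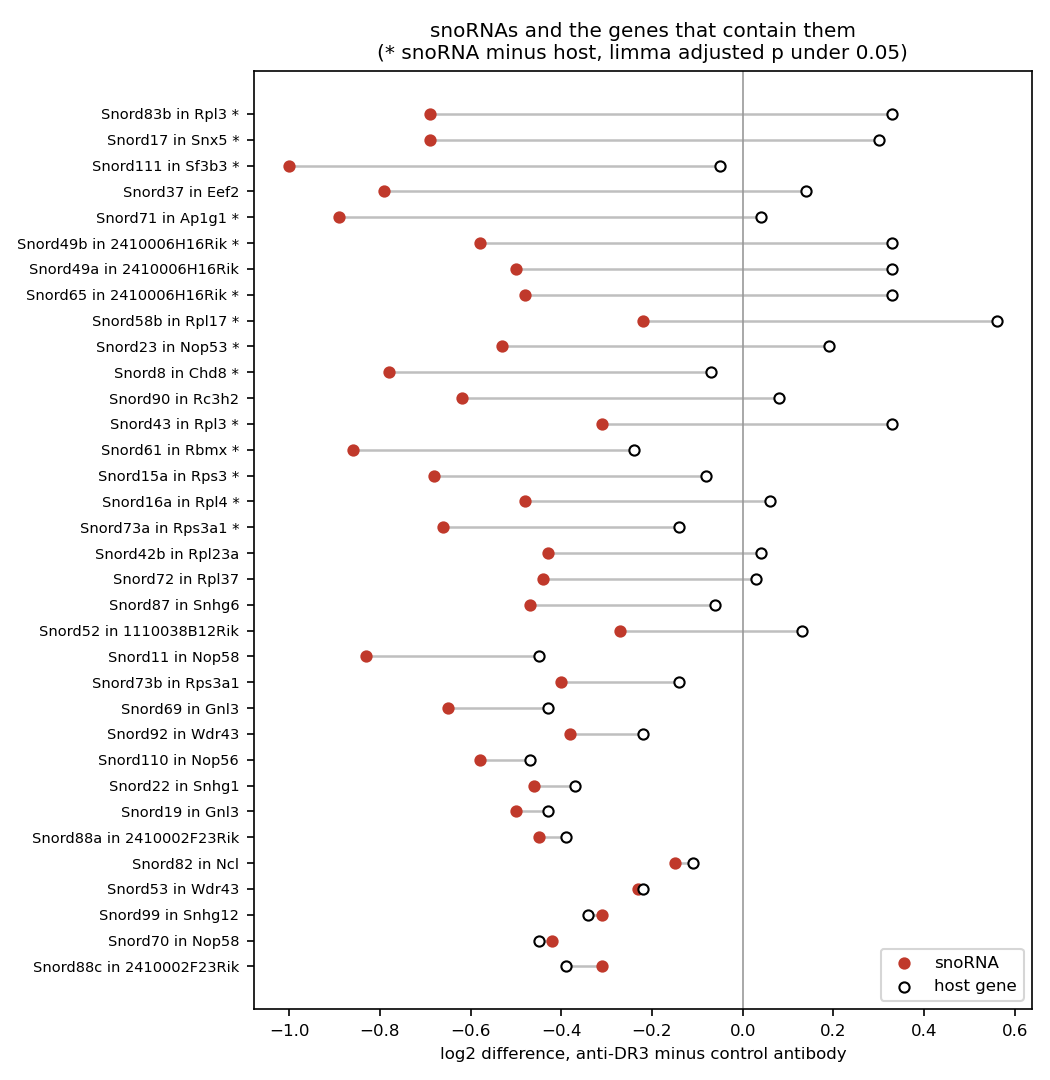
Log2 difference, anti-DR3 minus control antibody (x axis), of 34 snoRNAs (filled red) and of the gene that contains each (open), by the gene's brightest probe set. A line joins the pair, and an asterisk marks the 14 pairs whose ratio passed. Red points lie left of the open points in 31 pairs, and the pairs at the bottom, such as Snord70 with Nop58, lie close together.

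The start sites of 3 noncoding hosts are shown to set hosts whose difference was close to that of their snoRNA beside a host whose difference had the opposite sign. The 3 were picked after their values were seen. Many snoRNA hosts are known to begin with a run of pyrimidines, the terminal oligopyrimidine tract, which couples translation to growth signals. The windows below run from 40 bases before to 20 bases from the annotated start, from RefSeq on GRCm38.p6, and capitals mark the longest run of C and T letters that touches the 5 bases on either side of the start. Snhg1 (chr19:8723447-8723506, plus strand) and Snhg12 (chr4:132308638-132308697, plus strand) had differences of -0.37 and -0.34, and 2410006H16Rik (chr11:62602837-62602896, plus strand) had 0.33, none of which passed.
Snhg1: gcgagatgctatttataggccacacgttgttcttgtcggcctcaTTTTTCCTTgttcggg
Snhg12: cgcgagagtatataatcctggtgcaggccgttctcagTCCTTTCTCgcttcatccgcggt
2410006H16Rik: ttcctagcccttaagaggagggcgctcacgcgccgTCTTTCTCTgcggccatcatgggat

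The run was 9 bases long in all 3 hosts. A run of at least 7 was present in 8 of the 28 hosts with a window, or 28.6%, and in 5 of the 8 noncoding ones, against 15.7% of all 27025 genes with a window. Among hosts that encode ribosomal proteins or translation factors the run varied, from 1 in Rps3a1 and 2 in Rps3 and Eef2 to 14 in Rpl4 and Rpl13a. Whether the annotated starts are the sites used in these cells was not tested, so this is no tally of hosts with a tract. A run of these letters describes the window and not its use.

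Proteins of the snoRNA pathway were measured for 50 genes in 4 lists, and their median difference was -0.10. Of the 50, 2 fell, 0 rose and 48 did not pass. The 2 were Nop56 and Nop58. Fbl, the methyltransferase fibrillarin, was not analysed here. Of the particle's core, Snu13, the protein that first binds the C and D boxes, had 9.47 and 9.59 in anti-DR3 Treg, against 9.43 and 9.09 in control antibody Treg (0.27 ± 0.13, adjusted p = 0.249, limma), and did not pass. The Snu13 value is from its brightest probe set, and the mean of its probe sets gave a difference of 0.08. The 8 assembly factors had a median of -0.02, with Hsp90aa1, a chaperone, at -0.21 and Ruvbl2, an ATPase of the assembly complex, at 0.14. Among 15 genes of snoRNA processing and trafficking the median was -0.14. Dis3, a nuclease of the exosome, Nolc1, a chaperone of snoRNPs in the nucleolus, and Aqr, the helicase that ties intronic snoRNA assembly to splicing, had -0.33, -0.30 and -0.24 and did not pass. The 24 proteins of the U3 processome, which cleaves the precursor of small-subunit ribosomal RNA, had a median of -0.10, led by Nop14 at -0.39 and Utp20 at -0.36, which did not pass (adjusted p = 0.0566 and 0.0622, limma). Of these 50 genes 13 had an unadjusted p under 0.05, and of all 12114 genes tested 3166 did.

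Other small nuclear RNAs moved in the same direction as the box C/D members. Of 25 box H/ACA snoRNAs tested, which guide pseudouridylation, 11 fell and 0 rose, with a median of -0.43, and of 5 Cajal body small RNAs 3 fell and 0 rose, with a median of -0.55. Summed intensities were 57000 and 52400 (anti-DR3) against 78100 and 75700 (control antibody) for box C/D, and 22400 and 22200 (anti-DR3) against 31000 and 28900 (control antibody) for box H/ACA. In a setting chosen after seeing the data, the box H/ACA and Cajal body RNAs were used to centre the arrays. The median of the box C/D members was then -0.09, 3 were called lower and 0 higher, and the groups did not overlap for 15 on the lower and 7 on the higher side. In that fit 5949 of the 12114 genes were called, so its 3 calls cannot be set against the 26. The shares of all genes without overlap were not counted in that setting, so the 15 and 7 cannot be read against a background. Of 77 genes tested with symbols starting in Rpl or Rps 0 were called. Their median was -0.03, and 10 had an unadjusted p under 0.05. Besides ribosomal protein genes this class holds pseudogenes, such as Rpl15-ps6, and other genes, such as the S6 kinase gene Rps6kb2. Of 144 microRNA genes tested 5 fell and 0 rose, with a median of -0.12. For 60 of the 144 both anti-DR3 arrays lay below both control antibody arrays, and for 17 both lay above. The shares over all genes tested were 24.6% and 31.6%. Per the labels' protocols RNA was isolated on a silica column kit, of a kind that retains short RNAs poorly. Whether recovery of short RNAs differed between the arrays was not tested.

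**Figure D3:**
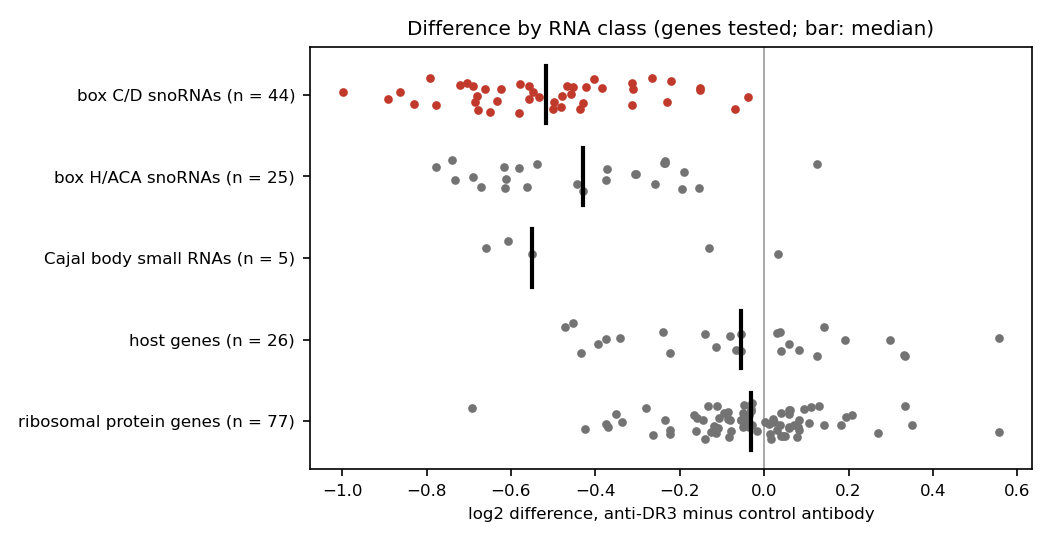
Log2 difference, anti-DR3 minus control antibody (x axis), for each tested gene of 5 classes, 1 point a gene, with a black bar at the class median. Box C/D snoRNAs (red) have a median of -0.52, box H/ACA snoRNAs -0.43 and Cajal body small RNAs -0.55. The host genes of the box C/D members lie at -0.05 and the class labelled ribosomal protein genes at -0.03. That class was taken by symbol (Rpl or Rps) and also holds pseudogenes and other genes.

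Foxp3, the defining transcription factor of Treg, was high in all 4 arrays, with 11.93 and 11.90 in anti-DR3 Treg, against 11.89 and 11.81 in control antibody Treg (0.06 ± 0.081, adjusted p = 0.671, limma), while Tnfrsf25 differed by 0.17 ± 0.093. Of 12 Treg identity genes 1 rose and 1 fell. Of 7 myeloid markers tested 2 rose, Cybb and Csf1r, and 5 did not pass. The median of the 7 was 0.42, and 5 of the 7 had an unadjusted p under 0.05. Among those that did not pass, Itgam, Lyz2, Cst3 and Cd68 had positive differences (0.47, 0.43, 0.40 and 0.11). Fcgr3 had a negative one (-0.30 ± 0.090). The groups did not overlap for Itgam, Cst3 and Fcgr3. The 9 myeloid markers with a probe set summed to 1020 and 1080 (anti-DR3) against 707 and 731 (control antibody), and Cybb was the brightest of them, with 8.73 and 8.74 in anti-DR3 Treg, against 7.67 and 7.70 in control antibody Treg. Of 3 CD8 T and NK markers tested 1 rose, Cd8b1, and the 7 with a probe set summed to 589 and 561 (anti-DR3) against 549 and 476 (control antibody). B cell markers (3 tested) and erythroid and platelet markers (1 tested) had 0 calls, with 0 under an unadjusted p of 0.05, and summed to 314 and 309 (anti-DR3) against 302 and 309 (control antibody), and to 83.9 and 90.1 (anti-DR3) against 86.2 and 98.3 (control antibody). The part of these markers in the snoRNA result was not tested.

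Neither the length of a snoRNA nor its level tracked its difference. Across the 44 members tested, the Spearman correlation with the difference was -0.065 for length, which ran from 48 to 221 nucleotides over the 47, and 0.023 for the mean log2 level. Both are descriptions of members that share the same 4 arrays.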

How the data were processed

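RNA from sorted Treg was measured on Affymetrix whole-transcript arrays, 2 per group. The authors deposited intensities on a linear scale for 41345 probe sets, and per the submitters' processing notes these are values from RMA (robust multi-array average). The software, its version and the build were not given in the sources used here. RMA gives arrays a shared distribution, so a shift common to all genes would not be seen, and the number of arrays limits precision. The platform annotation gave 23521 probe sets 1 symbol, 1814 several and 16010 none listed.

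Log2 was taken, each gene was represented by its brightest probe set, and genes above the array median on at least 2 arrays were fitted with limma 3.58.1 in R 4.3.3 (two-sided, prior of 3.94 degrees of freedom beside 2 residual), with Benjamini-Hochberg adjustment. With 2 arrays per group the smallest p of an exact permutation test is 0.333. All 47 members matched a RefSeq gene table (GRCm38.p6) by gene identifier. A host is a gene of that table whose span contains the snoRNA. Strand was planned as a criterion but could not be used, because the table holds none for the snoRNAs; of 5 members inside 2 genes the textbook host was taken. Some hosts are not reported here. The snoRNA-to-host ratio, the test of pairs within families and the centring on other small RNAs were chosen after seeing the data, and the host classes and the pathway and marker lists were written by hand.

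The members and lists were chosen with earlier results of these data known. Named were all called members up to 20, the 8 highest and 8 lowest moderated statistics, the 6 brightest, the extremes of each family, their hosts, up to 4 genes of each pathway list, and Foxp3 and Tnfrsf25; other members are given as values after these were seen. The code was tested on simulated data. The settings varied were the filter, centring, variance model, probe set, threshold, a block for replicate number, and the omission of single arrays.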

Additional observations from a re-analysis of the deposited data

How the results depend on the processing

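The median of the box C/D members was negative in every setting, while the number called was not stable. Members called lower numbered 29 with the stricter filter, 28 after centring on the genes tested, 33 with the trended robust prior, 31 at an adjusted p under 0.10 and 26 with the mean of probe sets. With each array left out in turn, members called lower ranged from 0 to 9, their median difference from -0.62 to -0.46, members without overlap on the higher side from 0 to 1, and calls among pathway proteins and hosts were 0 in every case; these fits have 1 residual degree of freedom in place of 2, and called 0 to 312 genes in all. No filter on dim genes gave 0 members called lower (37 under an unadjusted p of 0.05, 1 of them higher), 1 member without overlap on the higher side (Snord123), 0 pathway proteins and 0 hosts. Testing all probe sets separately gave 0, 0 and 0 (34 members under an unadjusted p of 0.05, smallest adjusted p = 0.0764 over all probe sets, limma), and the ordinary linear model 0, 0 and 0 (24 members; smallest adjusted p = 0.108). Why these settings differ was not tested. The replicate block gave 24 members called lower, 21 of them shared with the 26, with 0 pathway proteins and 1 host. That host is none of Nop56, Nop58 and Gnl3, which had adjusted p = 0.0533, 0.0561 and 0.0750 under the block (limma). The labels do not say what a replicate number shares, and with 2 pairs the correlation of replicate differences, 0.051 over all genes, cannot show whether the arrays were paired. Pathway proteins called numbered 4 with the stricter filter, 4 after centring on the genes tested, 6 with the trended robust prior and 6 at an adjusted p under 0.10, and hosts 6 in each of the last 2. After centring on the box H/ACA and Cajal body RNAs 3 members were called lower and the median was -0.09, in a fit that called 5949 genes. Without overlap 15 members lay lower and 7 higher there, and the share of all genes was not counted. Outside that centring, some small differences turned direction. With single arrays left out, Snord118 ranged from -0.18 to 0.04, Snord13 from -0.11 to 0.04, Snord53 from -0.85 to 0.39 and Snhg6 from -0.12 to 0.01. Without anti-DR3 replicate 2 all 3 snoRNAs were at 0.04. Ap1g1 turned to -0.02 after centring on the genes tested, and Rpl3 to -0.09 with the mean of its probe sets. Among the other values of named members the call and direction held in 291, the call was lost in 161 and gained in 10. These counts leave out the threshold of 0.10 and the centring on the box H/ACA and Cajal body RNAs.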

Other observations

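Further probe sets carry a Snord symbol together with others and so lay outside the 47. Of 33 such probe sets, 16 belong to the imprinted Snord116 cluster, and 0 of these 16 were bright enough to be tested. Of the other 17, 16 were bright, with a median difference of -0.41 and a range of -0.72 to 0.10. Among the bright ones 13 lay below control antibody on both anti-DR3 arrays without overlap and 1 lay above. Over all genes tested, 24.6% lay below and 31.6% above without overlap. No gene is named from these probe sets, since their signal cannot be assigned to 1 symbol.

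Ptcd3, a mitochondrial ribosome protein gene named after its values were seen, has 2 probe sets with differences of -1.35 and -0.32. Its span in the RefSeq table contains Snord94, a box C/D snoRNA for which no probe set of a single symbol was analysed here. What the 2 probe sets of Ptcd3 cover was not tested.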
